A study of Mus musculus with 8 samples.

Results

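The genes described here encode proteins that the liver secretes into the blood plasma, and were taken from a written list of 53 symbols in 5 roles: 12 carriers, 14 coagulation factors, 13 protease inhibitors, 11 complement components and 3 acute phase proteins. Of these 53 genes, 46 had a row in the mRNA count table, which holds 21915 genes, and 25 had enough counts to be tested among 14142 genes. The RNA came from Hepa 1-6 cells, a mouse hepatoma line, and the table holds 4 libraries of polyadenylated RNA. In the 2 Kap1 KD libraries the cells had received an shRNA against Kap1, the corepressor encoded by Trim28, and in the 2 control libraries a control shRNA according to the labels or the empty lentiviral vector according to the methods. All cells were thus vector-treated, and they were collected 5 days after transduction. Nothing in the sources used here says that the 2 libraries of a group came from separate cultures. The p-values therefore rest on the spread between libraries, which may be technical, estimated with information shared across genes. Every n below is 2 libraries.

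Hepatocytes make most plasma proteins, among them albumin and other carriers, the clotting factors and their inhibitors, and the complement components that circulate before they are activated by proteolysis. In adult liver these genes are among the most abundantly transcribed, and they are known to depend on liver-enriched transcription factors that bind close to their start sites. The alpha-fetoprotein gene, a relative of the albumin gene, is active in fetal liver, nearly silent in adult liver and often active again in hepatoma cells.

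The libraries held between 41566888 and 53605115 counts. Levels are given as CPM, the share of a library's counts scaled to a fixed total, after TMM normalization, a scaling for library composition, and levels of different genes are compared only as CPM per kb of exonic length. Trim28 had 456 and 574 CPM in control replicates 1 and 2 and 106 and 78.9 CPM in Kap1 KD replicates 1 and 2, so the labels and the targeted gene did not conflict. Its log2 fold change was -2.48 ± 0.25 (SE, n = 2 per group). Of 12 liver-enriched transcription factors, 11 passed the filter on low counts, with mean levels from 0.767 CPM per kb for Nr1h4 to 30.2 CPM per kb for Foxa2, whereas Nr1i2 was near 0. Marker genes of leukocytes summed to 23.0, 39.7, 21.5 and 35.3 CPM in control replicates 1 and 2 and Kap1 KD replicates 1 and 2. Most of this was Cd14, at 17.1, 29.0, 16.7 and 24.6 CPM in the same order, and Cd68 had 3.19 to 7.41 CPM. Of the 7 leukocyte genes with a row, 4 stayed under 1 CPM in every library, among them Ptprc with 4 to 8 counts. Markers of endothelial cells summed to 1.67 to 2.06 CPM. Fibroblast markers summed to 1231 to 1705 CPM, nearly all of it Dcn, and 5 of their 8 genes stayed under 1 CPM in every library, with Col1a2 at 0 or 1 count. Of all these marker genes none was called without a replicate term, and Col1a1, at 0.574 and 1.03 CPM in the controls and 1.10 and 1.52 CPM in Kap1 KD, was the only one called, higher, with it in edgeR. The part of these cells in the results below was not tested, and in RNA from bulk cultures fewer cells of a type and less RNA per cell cannot be told apart.

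Only a part of the plasma protein programme was expressed in this line. At least 1 CPM in every library was reached by 17 of the 53 genes, another 8 were tested but fell under 1 CPM in at least 1 library, and 21 were counted but not tested. The 21 untested genes had at most 13 counts in any library, and 13 of them had 5 or fewer in every library. A further 7 genes (Serpina6, F7, F10, F13b, Fgg, C8a and Saa2) were not analysed here, and the table holds no gene whose 4 counts are all 0. Of the 25 tested genes, 23 exceeded the filter level of 0.201 CPM in all 4 libraries, F5 did so in both controls but not in both Kap1 KD libraries, and C9 in 1 library of each group.

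The plasma protein genes together took 0.343% of all counts in control replicate 1, with 95% bounds after Wilson of 0.341% and 0.344%. Control replicate 2 gave 0.313% (bounds 0.311% and 0.314%), Kap1 KD replicate 1 0.251% (0.250% and 0.253%) and Kap1 KD replicate 2 0.177% (0.176% and 0.179%), where the bounds cover counting error only. Both Kap1 KD shares lay below both control shares. The sum was carried by few genes: Alb, Afp, Rbp4 and Itih2 made up 93.8% and 87.9% of it in the controls and 92.9% and 85.9% in the Kap1 KD libraries.

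**Figure D1:**
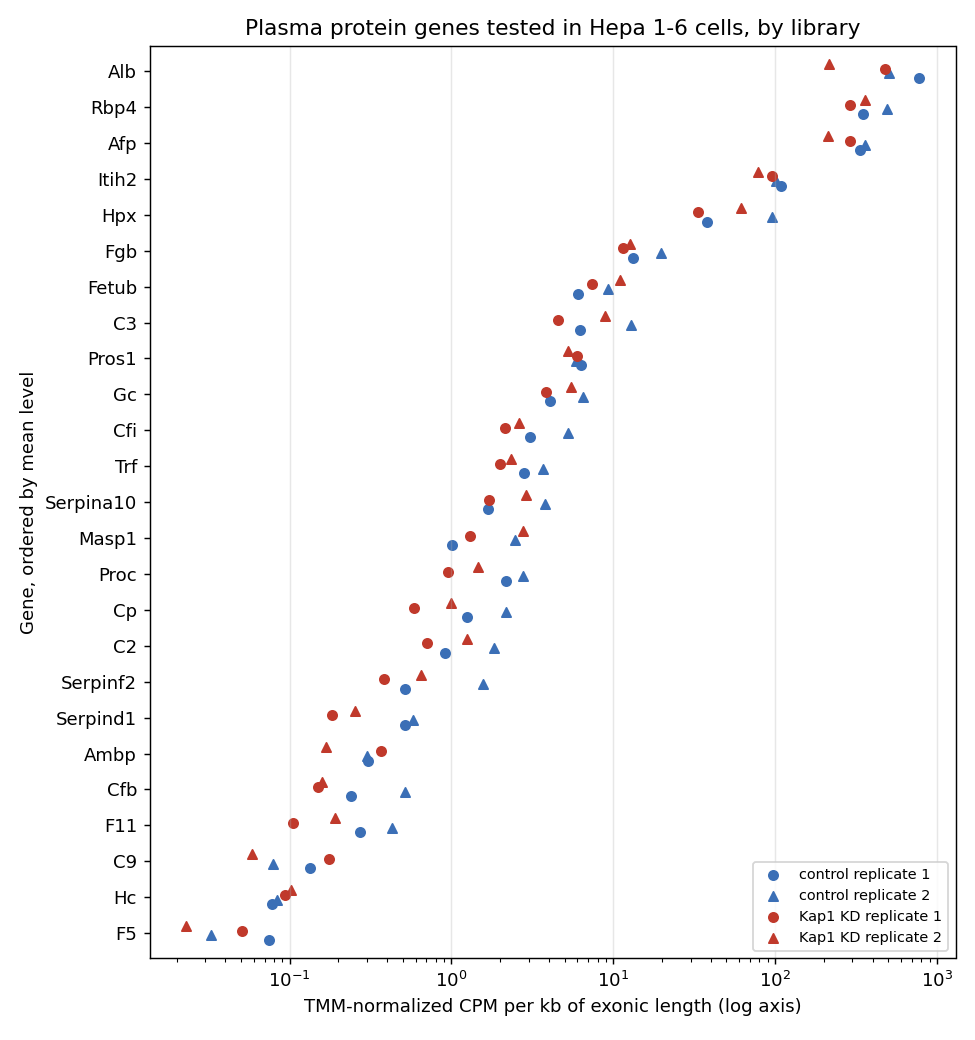
Level of the 25 tested plasma protein genes in each library, as TMM-normalized CPM per kb of exonic length on a log axis; circles are replicate 1, triangles replicate 2, blue control and red Kap1 KD, with 1 point per library. Mean levels ran from 493 CPM per kb for Alb down to under 0.1 for Hc and F5.

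The comparison of Kap1 KD with control asks whether these genes depend on Kap1. In the fit without a replicate term no plasma protein gene was called at an adjusted p under 0.05 and a 1.5-fold change (edgeR quasi-likelihood test, Benjamini-Hochberg), and neither was any other gene: the share of all tested genes called was 0%. Every adjusted p of the 25 genes was 0.9999 or more. The targeted gene Trim28 was not called in this fit either (log2 fold change -2.48, adjusted p = 0.9999, edgeR). The absence of calls therefore does not show that the plasma protein genes were unchanged. At an unadjusted p under 0.05 in edgeR there were 3 of the 25, Serpind1, Proc and Cp, and 186 of all 14142 genes. DESeq2 without a replicate term called 3 genes (0.0212% of all tested), none of them a plasma protein gene. The exact permutation test of 2 against 2 libraries cannot give a two-sided p below 0.333.

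In the values themselves most of the tested genes were lower in the Kap1 KD libraries. The list was chosen with earlier results of these data known, and its genes are not independent. Shares set against all tested genes, here and below, therefore describe the list and test nothing. The median log2 fold change of the 25 genes was -0.48, within a range of -1.32 to 0.28, and that of all tested genes was -0.02. Both Kap1 KD libraries lay below both controls for 11 of the 25 (44.0%, against 10.6% of all tested genes) and above both for 1 (4.0%, against 9.69%), and for 13 the groups overlapped. Among the 18 members with a mean of 1 CPM or more over the libraries, a choice that does not look at the groups, 8 lay below both controls (44.4%, against 10.1% of all genes with that mean level) and none above. Leaving out 1 library in turn turned the sign of the log2 fold change for 11 of the 25, and for 14 it kept its sign. Albumin and its relative Afp were among the 11 genes below both controls, together with the iron and copper carriers Trf and Cp, the fibrinogen chain Fgb, the clotting genes Proc and F11, the inhibitors Itih2 and Serpind1, and the complement genes Cfi and Cfb.

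Libraries were also compared as pairs. In each group 1 library bears the number 2 in its title and the other no number, so that the latter was taken as replicate 1 and the pairing is partly inferred. Between the replicate 1 libraries the median difference of the 25 genes, Kap1 KD minus control in log2(CPM + 0.1), was -0.26, and between the replicate 2 libraries -0.63, while the medians of all tested genes were -0.02 and -0.00. In both pairs 19 of the 25 genes were lower in Kap1 KD (76.0%, against 38.2% of all tested genes), 3 were higher in both (12%, against 32.8%) and 3 differed in direction. A difference of 1.5-fold or more downward in both pairs was found for Cp, Alb, Proc, F11 and Serpind1 (20.0% of the 25, against 1.47% of all tested genes), and none had such a difference upward in both. None of the 25 tested genes had differences beyond 0.58 with opposite signs in the pairs. The untested gene Serpina1b did, at -0.62 and 0.91, with 3 and 5 counts in the controls and 0 and 13 in Kap1 KD. Scaled by total counts instead of TMM, again 19 genes were lower in both pairs, but so were 45.2% of all tested genes in place of 38.2%.

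**Figure D2:**
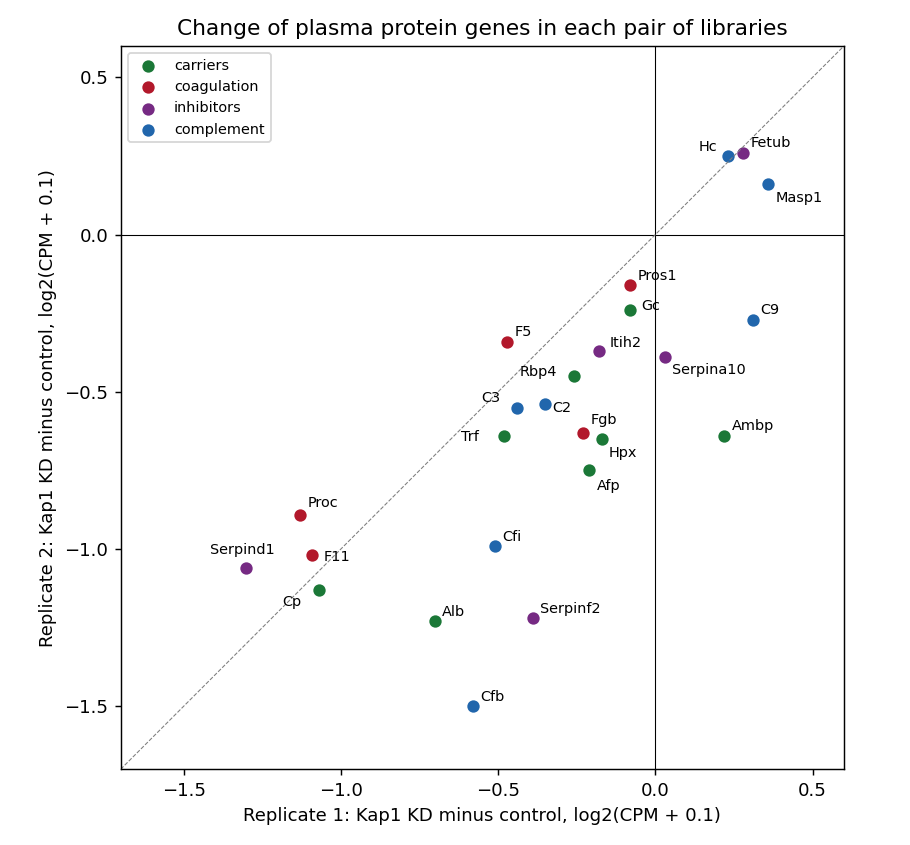
Difference between Kap1 KD and control in log2(CPM + 0.1) for the 25 tested genes, replicate 1 libraries on the horizontal and replicate 2 libraries on the vertical axis; each point is a gene, coloured by role, and the dashed line marks equal differences. The lower left quadrant holds 19 genes and the upper right holds Masp1, Fetub and Hc.

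With the replicate number as a block in the edgeR fit, 8 of the 25 genes were called lower, namely Cp, Alb, Proc, F11, Serpind1, Serpinf2, Cfi and Cfb, against 2.40% of all tested genes called lower. None was called higher, against 2.06% of all tested genes. DESeq2 with the same block called 4 of these 8 lower, Cp (adjusted p = 2.1e-08, DESeq2), Cfi (0.0170), Proc (0.0190) and Alb (0.0220), against 1.09% of the 11126 genes to which it gave an adjusted p. It gave none to the other 4, F11, Serpind1, Serpinf2 and Cfb, whose log2 fold changes there were -1.26, -1.33, -0.87 and -1.20, so DESeq2 did not test these calls; of the 25 genes 17 received one. The blocked p-values below, all adjusted over 14142 genes by Benjamini-Hochberg in edgeR, rest on a pairing of which the titles state only a part. Their standard errors did not follow the gap between a gene's 2 pairs. The error was 0.06 for Alb, Rbp4 and Trim28, whose pair differences lay -0.54, -0.20 and -0.76 apart (replicate 2 minus replicate 1). These p-values can therefore overstate how well the pairs of a gene agree.

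Of the 12 carriers, 8 were tested, and 7 of these had lower values in Kap1 KD in both pairs (87.5%, against 38.2% of all tested genes). Their median log2 fold change was -0.48, with 0 called without the block and 2, Alb and Cp, called lower with it (against 2.40% of all tested genes). Alb encodes albumin, the main carrier of plasma (mm9 chromosome 5, 90889915 to 90905629, plus strand). It was at 1580 and 1036 CPM in control replicates 1 and 2 and at 975 and 441 CPM in Kap1 KD replicates 1 and 2. Both Kap1 KD libraries were lower than both controls, but Kap1 KD replicate 1 lay close beneath control replicate 2. The log2 fold change was -0.89 ± 0.45 (SE, n = 2 per group) without the block, and -0.96 ± 0.06 (SE, adjusted p = 8.8e-56, edgeR) with it. The pair differences of Alb, -0.70 and -1.23, lay much further apart than this blocked error. DESeq2 with the same block gave Alb an adjusted p of 0.0220. Leaving out 1 library at a time, without the block, gave Alb values from -1.57 (without Kap1 KD replicate 1) to -0.41 (without Kap1 KD replicate 2).

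Afp, which encodes alpha-fetoprotein, lies next to Alb on the same strand (mm9 chromosome 5, 90919740 to 90937933). It was at 697 and 750 CPM in the controls and at 603 and 445 CPM in the Kap1 KD libraries, which were both lower than both controls. Its log2 fold change was -0.46 ± 0.21 (SE, n = 2 per group), and -0.48 with the block, under the 1.5-fold threshold. The blocked change of Afp had an adjusted p of 1.4e-14 in edgeR but 0.298 in DESeq2, where it did not pass. Per kb, the ratio of Alb to Afp was 2.31 and 1.41 in the controls and 1.65 and 1.01 in the Kap1 KD libraries. The ratio was lower in Kap1 KD within each pair and lower in replicate 2 within each group, and the groups overlapped. Gc, the vitamin D-binding protein and another relative of albumin, lies farther off on the opposite strand of chromosome 5 (89846549 to 89886790) and had 6.77 and 10.8 CPM in the controls against 6.38 and 9.15 CPM in Kap1 KD. The groups overlapped for Gc (log2 fold change -0.18; with the block adjusted p = 0.357, edgeR). Its mean level of 4.97 CPM per kb stood beside 493 for Alb and 299 for Afp.

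The promoters of these albumin relatives are shown because the genes share ancestry and a chromosome but differ so widely in level. Each window runs from 250 bases before to 50 bases after the gene's start in RefSeq (GRCm38.p6, a later build than mm9), at chr5:90460620-90460919 on the plus strand for Alb, chr5:90490464-90490763 on the plus strand for Afp and chr5:89457849-89458148 on the minus strand for Gc. Capitals mark matches to 5 short patterns on either strand: GTTAATNAT, part of the HNF1 recognition sequence; TTGCNNAA, a C/EBP core; CAAAGTNCA, part of the HNF4 recognition sequence; TATAAA; and CCAAT.
Alb: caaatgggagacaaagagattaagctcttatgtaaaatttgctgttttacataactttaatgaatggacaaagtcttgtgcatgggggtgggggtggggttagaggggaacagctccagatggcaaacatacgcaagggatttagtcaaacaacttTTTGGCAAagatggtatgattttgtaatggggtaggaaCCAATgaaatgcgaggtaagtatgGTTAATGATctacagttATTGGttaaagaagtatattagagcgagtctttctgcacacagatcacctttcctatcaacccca
Afp: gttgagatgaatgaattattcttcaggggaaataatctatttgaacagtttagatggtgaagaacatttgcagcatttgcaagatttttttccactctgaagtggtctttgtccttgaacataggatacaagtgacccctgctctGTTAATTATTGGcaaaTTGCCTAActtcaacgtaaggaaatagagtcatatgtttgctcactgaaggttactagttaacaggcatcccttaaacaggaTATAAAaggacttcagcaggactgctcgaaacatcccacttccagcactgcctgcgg
Gc: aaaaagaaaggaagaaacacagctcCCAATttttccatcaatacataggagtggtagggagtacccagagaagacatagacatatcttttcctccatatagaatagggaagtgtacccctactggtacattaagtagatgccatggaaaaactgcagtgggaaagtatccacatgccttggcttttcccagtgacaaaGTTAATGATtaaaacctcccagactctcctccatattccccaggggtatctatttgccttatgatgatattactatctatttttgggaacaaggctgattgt
All 3 windows hold the HNF1 pattern, at position -32 from the annotated start in Alb, -105 in Afp, where it overlaps a reversed CCAAT, and -52 in Gc. The C/EBP core is found in Alb and Afp but not in the Gc window, and TATAAA in Afp alone.

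Promoter windows were found for 39 of the 53 genes, 42 windows in all. The HNF1 pattern occurs in 7 of the 42 (16.7%) and in 0.801% of all 32851 windows, and the C/EBP core in 17 (40.5%) and in 10.8% of all windows. TATAAA occurs in 9 (21.4%, against 13.6%), CCAAT in 15 (35.7%, against 37.4%), and the HNF4 pattern in 1, that of Serpind1 (2.38%, against 1.41%). The HNF1 pattern was found both before expressed genes (Alb, Afp, Gc, Cp and the weakly expressed Hc) and before Fga, which had at most 2 counts, and F13b, not analysed here. Likewise the C/EBP core was in 10 of the 21 windows of tested genes and in 6 of the 15 windows of genes with too few counts. A match describes letters in a window and not a bound site. Only exact matches were searched, so a window without a match may hold a site that differs from the pattern.

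**Figure D3:**
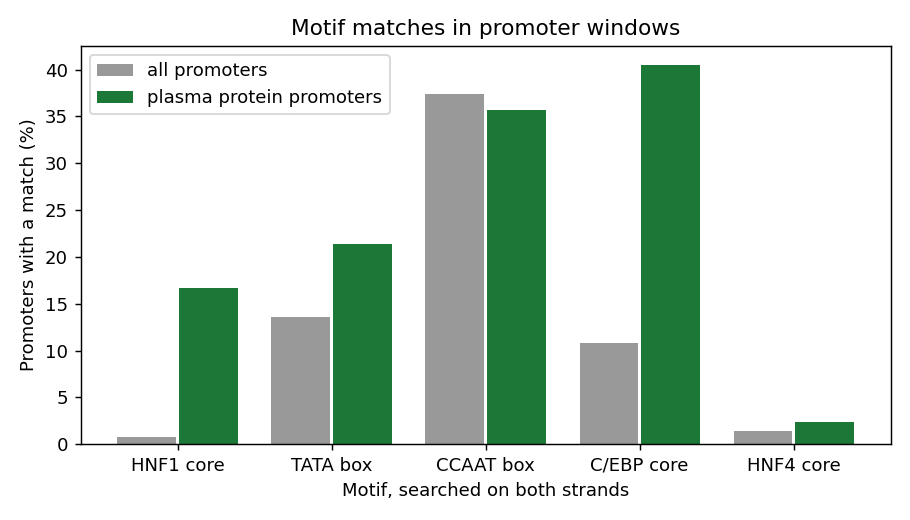
Share of promoter windows with at least 1 match to each pattern (percent, both strands), for all 32851 windows in grey and for the 42 windows of plasma protein genes in green. The green bar is 16.7% against 0.801% for the HNF1 pattern and 40.5% against 10.8% for the C/EBP core.

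Rbp4, the retinol carrier, was at 453 and 639 CPM in the controls and at 378 and 466 CPM in Kap1 KD. Each Kap1 KD library was below the control of its number, but the groups overlapped (log2 fold change -0.37 ± 0.24, SE, n = 2 per group). Per kb, Alb ranged from 216 to 773 CPM over the libraries, Rbp4 from 292 to 493 and Afp from 213 to 360, so the order of the 3 highest genes was not fixed. In Kap1 KD replicate 2 Rbp4 stood at 359 CPM per kb, above Alb at 216.

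Among the metal and heme carriers, Cp encodes ceruloplasmin, a copper-carrying ferroxidase (mm9 chromosome 3, 19857054 to 19909145, plus strand). Cp was at 12 and 20.8 CPM in the controls and at 5.66 and 9.47 CPM in Kap1 KD, without overlap. The pair differences were -1.07 and -1.13, and the log2 fold change was -1.11 ± 0.41 (SE, n = 2 per group) without and -1.11 ± 0.11 (SE; adjusted p = 4.6e-20, edgeR) with the block. Trf encodes transferrin, the iron carrier, and was at 9.24 and 12.1 CPM in the controls and at 6.59 and 7.74 CPM in Kap1 KD, again without overlap. Its log2 fold change of -0.57 ± 0.26 (SE, n = 2 per group) was just under 1.5-fold, and its exons overlap those of a second gene model of the same name and of Srprb, so its counts are uncertain. Hpx, the heme-binding hemopexin, was at 55.7 and 142 CPM in the controls and at 49.5 and 90.6 CPM in Kap1 KD. For Hpx the libraries of replicate 2 were higher than both of replicate 1, and the groups overlapped (log2 fold change -0.50 ± 0.54, SE, n = 2 per group).

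The remaining carriers were low. Ambp, whose product is cleaved into alpha-1-microglobulin and bikunin, had 0.235 to 0.516 CPM. Hp, the hemoglobin-binding haptoglobin, had 1 to 7 counts per library, and Ttr, the thyroxine carrier transthyretin, 0 to 11. Vtn, encoding vitronectin, had 2 counts in control replicate 2 and 0 elsewhere.

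Of the 14 coagulation genes, 5 were tested, all 5 with lower values in Kap1 KD in both pairs (against 38.2% of all tested genes). Their median log2 fold change was -0.56, with 0 called without the block and 2, Proc and F11, called lower with it (against 2.40% of all tested genes). Fibrinogen is built of 3 different chains, encoded by Fga, Fgb and Fgg. Fgb was well expressed, at 21.9 and 32.3 CPM in the controls and at 18.7 and 20.8 CPM in Kap1 KD, both below both controls. Fga had 0, 0, 1 and 2 counts in control replicates 1 and 2 and Kap1 KD replicates 1 and 2, and Fgg was not analysed here. The log2 fold change of Fgb was -0.46 ± 0.26 (SE, n = 2 per group), and -0.44 with the block (adjusted p = 1.8e-05, edgeR), under the 1.5-fold threshold. The 2 windows below, chr3:83049814-83050113 on the minus strand for Fgb and chr3:83025903-83026202 on the plus strand for Fga (GRCm38.p6), are shown for this contrast in level, with capitals as above.
Fgb: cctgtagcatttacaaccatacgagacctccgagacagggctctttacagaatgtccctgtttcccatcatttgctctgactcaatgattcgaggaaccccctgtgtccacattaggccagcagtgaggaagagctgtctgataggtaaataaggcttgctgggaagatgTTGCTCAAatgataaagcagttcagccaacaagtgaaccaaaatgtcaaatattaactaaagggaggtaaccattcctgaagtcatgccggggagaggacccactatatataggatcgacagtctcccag
Fga: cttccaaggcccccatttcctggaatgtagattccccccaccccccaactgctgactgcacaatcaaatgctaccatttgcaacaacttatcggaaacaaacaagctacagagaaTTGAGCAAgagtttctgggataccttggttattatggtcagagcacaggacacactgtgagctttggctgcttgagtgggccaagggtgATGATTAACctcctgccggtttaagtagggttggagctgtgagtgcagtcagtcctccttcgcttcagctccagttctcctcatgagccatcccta
Both hold a C/EBP core, at -80 in Fgb and -135 in Fga. An exact match to the HNF1 pattern was found in the window of Fga, at -46 and reversed, and not in that of Fgb. Inexact HNF1 sites were not searched for, so the Fgb window is not shown to lack one.

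Proc encodes protein C, the zymogen of an anticoagulant protease, and was at 3.57 and 4.51 CPM in the controls and at 1.57 and 2.39 CPM in Kap1 KD. The groups did not overlap, with a log2 fold change of -1.03 ± 0.35 (SE, n = 2 per group) without and -1.04 ± 0.18 (SE; adjusted p = 2.3e-07, edgeR) with the block. Its cofactor gene Pros1 had a mean level of 5.88 CPM per kb, against 1.83 for Proc, and was at 26 and 24.2 CPM in the controls and at 24.5 and 21.6 CPM in Kap1 KD. The groups overlapped for Pros1, whose log2 fold change was -0.12. F11, the zymogen factor XI of the contact pathway, was near the limit of detection, with 34 and 48 counts in the controls and 10 and 20 in Kap1 KD, or 0.610 and 0.967 against 0.235 and 0.427 CPM. The groups did not overlap (log2 fold change -1.24 ± 0.50, SE, n = 2 per group; with the block -1.25 ± 0.35, SE, adjusted p = 0.00405, edgeR).

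F5, encoding factor V, had 0.171 to 0.556 CPM, with overlapping groups. The prothrombin gene F2 had 2 to 8 counts per library, Kng1, the kininogen gene, 1 to 7, F12 at most 2 and the plasminogen gene Plg 1 count in control replicate 1 and 0 elsewhere.

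Of the 13 protease inhibitor genes, 5 were tested, with a median log2 fold change of -0.27. In both pairs 3 were lower (60.0%, against 38.2% of all tested genes) and 1, Fetub, was higher (20.0%, against 32.8%). Without the block 0 were called, and with it 2, Serpind1 and Serpinf2, were called lower (against 2.40% of all tested genes). Itih2, which encodes a heavy chain of the inter-alpha-trypsin inhibitor, had the highest mean level of them per kb (96.2 CPM per kb) and was at 364 and 338 CPM in the controls and at 321 and 261 CPM in Kap1 KD. Both Kap1 KD libraries were lower than both controls, by a log2 fold change of -0.27 ± 0.18 (SE, n = 2 per group). The genes of related heavy chains were near 0, with at most 1 count per library for Itih1 and Itih3 and at most 2 for Itih4.

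Serpind1 encodes heparin cofactor II, an inhibitor of thrombin, and had 1.13 and 1.27 CPM in the controls and 0.399 and 0.556 CPM in Kap1 KD. The 2 controls were close to each other, the groups did not overlap, and the log2 fold change of -1.32 ± 0.38 (SE, n = 2 per group) was the lowest of the 25 genes; it was -1.33 ± 0.30 (SE; adjusted p = 1.6e-04, edgeR) with the block. Serpinf2 encodes alpha-2-antiplasmin, which inhibits plasmin, and had 1.20 and 3.63 CPM in the controls and 0.892 and 1.5 CPM in Kap1 KD. Here the groups overlapped and the controls differed widely, so that the log2 fold change was -1.01 ± 0.64 (SE, n = 2 per group) without and -0.96 ± 0.22 (SE; adjusted p = 2.2e-04, edgeR) with the block.

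Fetub, encoding the metalloprotease inhibitor fetuin-B, went the other way, at 11.6 and 17.6 CPM in the controls and at 14.1 and 21.1 CPM in Kap1 KD. Each Kap1 KD library was above the control of its number, by 0.28 and 0.26 on the log2 scale, and the groups overlapped. Its log2 fold change was 0.27 ± 0.34 (SE, n = 2 per group) without and 0.27 ± 0.10 (SE; adjusted p = 0.0352, edgeR) with the block, under the 1.5-fold threshold, and with the block in DESeq2 it did not pass (adjusted p = 0.269). Serpina10, the inhibitor of factor X that depends on protein Z, had 2.69 to 6.13 CPM with overlapping groups. The major inhibitors of adult plasma were near 0: Serpinc1, the antithrombin gene, had 1 to 4 counts per library, and the alpha-1-antitrypsin genes Serpina1a and Serpina1b 2 to 4 and 0 to 13. Counts of these last 2 are uncertain because the Serpina1 genes are close copies. Ahsg, encoding fetuin-A and a relative of Fetub, had 5 to 10 counts per library.

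Of the 11 complement genes, 7 were tested, with a median log2 fold change of -0.48. In both pairs 4 were lower (57.1%, against 38.2% of all tested genes) and 2, Masp1 and Hc, were higher (28.6%, against 32.8%). Without the block 0 were called, and with it 2, Cfi and Cfb, were called lower (against 2.40% of all tested genes). C3, the central component on which the activation routes converge, was at 31.8 and 66.3 CPM in the controls and at 23.4 and 45.3 CPM in Kap1 KD. In both groups replicate 2 was higher than replicate 1, by 1.06 and 0.95 on the log2 scale, which was more than the difference of Kap1 KD from control in either pair (-0.44 and -0.55), and the groups overlapped. C2, a subunit of the classical convertase, was at 3.68 and 7.43 CPM in the controls and at 2.86 and 5.09 CPM in Kap1 KD, also with overlap.

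Cfi encodes factor I, the protease that inactivates C3b and C4b. It had 6.37 and 10.8 CPM in the controls and 4.46 and 5.41 CPM in Kap1 KD, without overlap. Its log2 fold change was -0.80 ± 0.35 (SE, n = 2 per group) without and -0.77 ± 0.13 (SE; adjusted p = 3.7e-07, edgeR) with the block. Cfb encodes factor B of the alternative pathway and was low, with 38 and 72 counts in the controls and 18 and 21 in Kap1 KD, or 0.682 and 1.45 against 0.422 and 0.449 CPM. The groups did not overlap (log2 fold change -1.28 ± 0.51, SE, n = 2 per group; with the block -1.26 ± 0.31, SE, adjusted p = 8.0e-04, edgeR). A read-through gene model on the same strand shares 79.5% of the exonic bases of Cfb and 40.8% of those of C2, so reads of either may have been left out of the counts.

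Masp1, a protease of the lectin pathway, was at 6.10 and 14.9 CPM in the controls and at 7.84 and 16.7 CPM in Kap1 KD, with overlapping groups and a log2 fold change of 0.22. Hc, encoding complement component C5, was the only tested gene with both Kap1 KD libraries above both controls, at 0.485 and 0.524 CPM against 0.587 and 0.641 CPM. These were 25 to 30 counts per library, and its log2 fold change of 0.28 ± 0.36 (SE, n = 2 per group) was smaller than its error. C9 had 0.150 to 0.446 CPM, Masp2 4 to 13 counts per library, C4b 3 to 12 and Mbl2 at most 1. Reads of Masp2 cannot be told from those of Tardbp on the opposite strand, with which it shares 54.9% of its exonic bases, unless counting used strand, and C4b has a close copy.

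The 3 acute phase genes gave no testable level. Orm1 had 1 count in each control and 0 in both Kap1 KD libraries, Saa1 had 1 count in control replicate 2 and 0 elsewhere, and Saa2 was not analysed here. A count of 0 allows a level of up to 0.0538 to 0.0704 CPM in these libraries, taken as 3 counts.

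**Figure D4:**
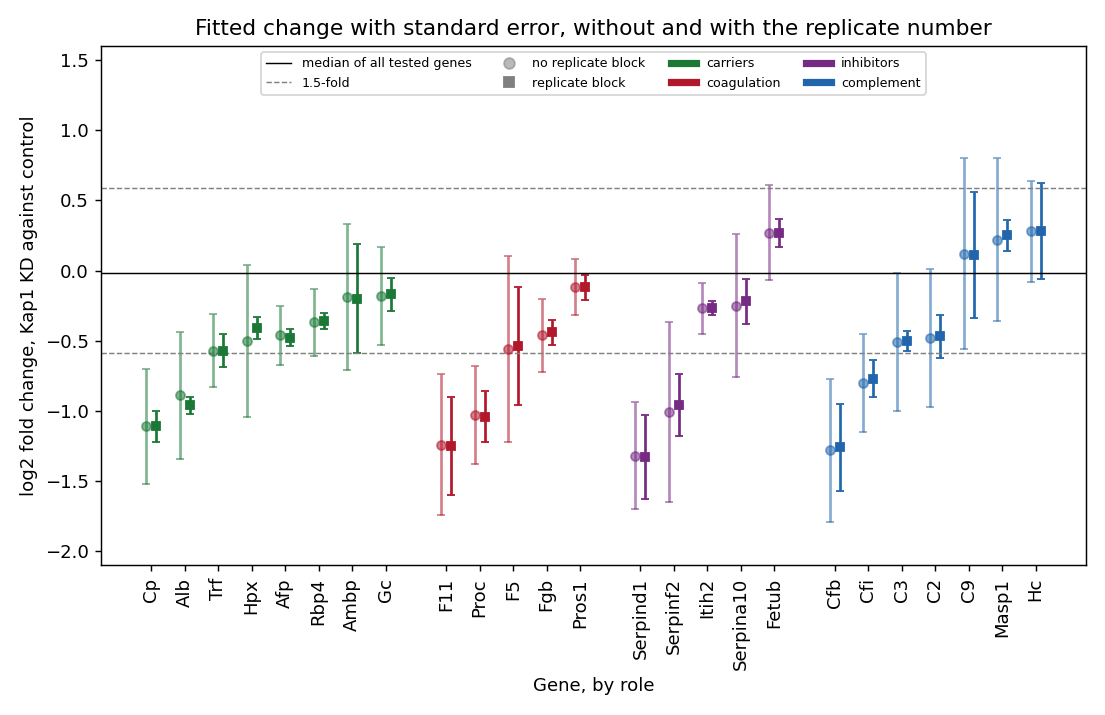
Fitted log2 fold change of Kap1 KD against control for the 25 tested genes, by role, from edgeR without the replicate number (circles) and with it as a block (squares); bars are standard errors, the black line is the median of all tested genes (-0.02) and the dashed lines mark 1.5-fold. Estimates hardly move between the fits, whereas the bars shrink with the block.

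The spread between libraries of a group was large for these genes and had a direction. Replicate 2 exceeded replicate 1 by a median of 0.56 on the log2 scale among the controls and 0.30 among the Kap1 KD libraries over the 25 genes, whereas the medians of all tested genes were -0.00 and -0.01. In both groups replicate 2 was at least 1.5-fold higher for 8 of the 25 genes, C3, C2, Masp1, Hpx, Cp, Serpina10, Serpinf2 and F11 (32%, against 5.66% of all tested genes), and at least 1.5-fold lower for 2, Alb and F5 (8%, against 14.2%). Alb differed by -0.61 in the controls and -1.14 in Kap1 KD, about as much as Kap1 KD differed from control in the pairs (-0.70 and -1.23). For Hpx the replicates differed by 1.35 and 0.87, more than its pair differences of -0.17 and -0.65.

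**Figure D5:**
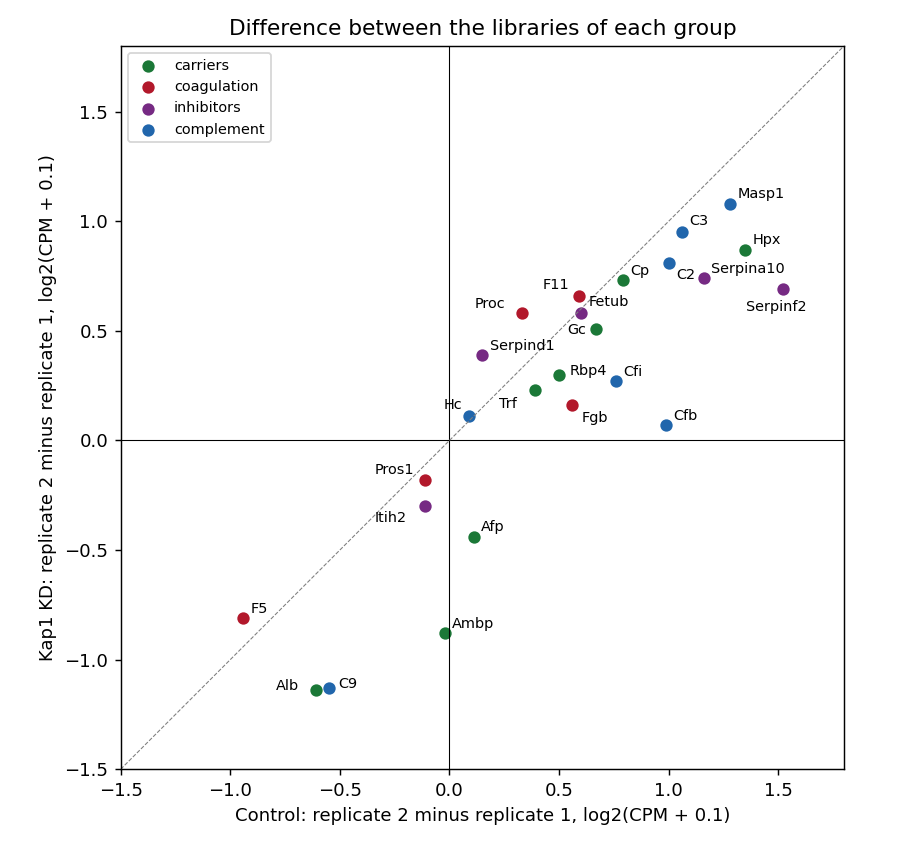
Difference between replicate 2 and replicate 1 in log2(CPM + 0.1) for the 25 tested genes, in the controls on the horizontal and in Kap1 KD on the vertical axis; each point is a gene, coloured by role, and the dashed line marks equal differences. Alb lies at -0.61 and -1.14 and Hpx at 1.35 and 0.87.

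Genes around this group were read from further lists. Of 56 other plasma protein genes, 23 were tested, with a median log2 fold change of -0.03 and 0 called without the block. Igfbp1 and Cfp were called lower with it in edgeR, whereas DESeq2 with the block gave Igfbp1 a log2 fold change of -0.58, just under the fold threshold, and Cfp no adjusted p. Igfbp1, an IGF-binding protein, had 126 and 179 CPM in the controls and 86.5 and 115 CPM in Kap1 KD, without overlap (log2 fold change -0.60 ± 0.27, SE, n = 2 per group).

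Of 18 genes of acute phase signalling, 17 were tested, with a median of 0.01, 0 called without the block, and 1 called higher and 1 lower with it. The higher one was Cebpd, a C/EBP factor of the acute phase, at 3.25 and 4.07 CPM in the controls and 4.55 and 13.2 CPM in Kap1 KD; it lay above both controls, chiefly in replicate 2. The lower one was Lifr, the receptor subunit for leukemia inhibitory factor, at 116 and 73.6 CPM in the controls and 89.0 and 40.3 CPM in Kap1 KD, with overlap. All 9 genes for processing and transport of clotting factors were tested, with a median of 0.02, 0 called without the block and 1, Nqo1, called lower with it in edgeR but not in DESeq2 (adjusted p = 0.164). Ggcx, the carboxylase that modifies vitamin K-dependent factors such as protein C, had 17.5 and 21.1 CPM in the controls and 12.2 and 14.9 CPM in Kap1 KD, under the 1.5-fold threshold (log2 fold change -0.51 ± 0.24, SE, n = 2 per group). Of the liver-enriched transcription factors, none was called in either fit, and their median was -0.23. Of the 11 tested, 7 were lower in both pairs (63.6%, against 38.2% of all tested genes) and 0 higher in both (against 32.8%). With the block, 4 were lower at an adjusted p under 0.05 (edgeR) but under 1.5-fold, and 1626 of all 14142 genes were lower at that p. Hnf4a had 110 and 203 CPM in the controls and 85.4 and 149 CPM in Kap1 KD, with overlapping groups. Its log2 fold change was -0.42 ± 0.41 (SE, n = 2 per group) without and -0.41 ± 0.07 (SE, adjusted p = 2.7e-07, edgeR) with the block. DESeq2 with the block gave Hnf4a an adjusted p of 2.9e-04.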

How the data were processed

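Polyadenylated RNA of Hepa 1-6 cells was sequenced in 2 control and 2 Kap1 KD libraries. The authors aligned reads to mm9 with TopHat, reporting 1 alignment per read, and deposited raw counts per Ensembl gene from HTSeq; the submitters' processing notes name TopHat2 2.0.11 and HTSeq 0.6.1. The strand setting is not given in the sources used here. Small RNA tables of the series list tRNA and snoRNA sequences and were not used here.

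Counts (41566888 to 53605115 per library) were filtered with filterByExpr, scaled by TMM and tested with the edgeR 4.0.16 quasi-likelihood test in R 4.3.3, without a replicate term. Standard errors are the log2 fold change over the square root of F. Calls needed an adjusted p under 0.05 (Benjamini-Hochberg over 14142 genes) and 1.5-fold. Pair differences used log2(CPM + 0.1), which understates changes of low genes. Alternatives were DESeq2 1.42.0, median-of-ratios factors, no low-count filter, other thresholds and pseudocounts, the replicate number as a block, and leaving out each library; DESeq2 with the block was added after seeing the data. Scripts were tested on simulated data.

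Symbols (21806 of 21915 genes), coordinates and exonic lengths came from the mm9 annotation, promoters from RefSeq (GRCm38.p6). Members and lists were chosen with earlier results of these data known. Library values are given for the 10 highest genes per kb, the genes whose Kap1 KD libraries both lay beyond both controls (up to 10 each way by size of change), genes whose pair differences oppose beyond 0.58, and Trim28; of the other lists, for up to 3 genes each way. Further members (among them C2, Masp1 and Serpinf2), Hnf4a and Ggcx were given after their values were seen. Some genes of the other lists that this rule selects are not reported here.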

Additional observations from a re-analysis of the deposited data

How the results depend on the processing

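The median log2 fold change of the 25 genes stayed negative in every alternative. Without a replicate block, DESeq2 called 3 genes and no plasma protein gene; median-of-ratios factors, no low-count filter and no fold threshold called 0. With the replicate block, edgeR called 8 plasma protein genes, all 8 lower, among 631 genes, and DESeq2, added after seeing the data, 4, all 4 lower, among 227. The pairing behind the block is stated only in part by the titles. Deviations from the group means of same-numbered libraries correlated at 0.81 across genes, which are not independent (0.87 over the 25). A first principal component that separates the numbers held 75.8% of the variance, and the second, which separates the groups, held 17.7%. With 1 library left out, a fit in which the lone library is assumed to vary like the other group called 3 to 65 genes and 0 to 1 plasma protein genes, 0 to 1 lower; the 1 was Alb without Kap1 KD replicate 1 (log2 fold change -1.57, adjusted p = 0.0218, edgeR), whose change over these fits ran from -1.57 to -0.41, the latter without Kap1 KD replicate 2, against -0.89 with all libraries. The median log2 fold change of the plasma protein genes then ranged from -0.71, without control replicate 1, to -0.18, without control replicate 2. These fits had no replicate term, and with 1 library left out the replicate numbers were unequal between the groups. The difference between the numbers therefore enters these values together with that between the groups. Leaving out 1 library turned the sign for 11 of the 25 genes, among them Serpinf2, which edgeR called lower with the block. Hpx, C3, C2 and Serpinf2 were lower in Kap1 KD in both pairs and turned only without control replicate 2. The log2 fold change ranged from -1.02 to 0.35 for Hpx, -0.48 to 0.22 for Gc, -0.85 to 0.28 for Ambp and -1.22 to 0.17 for F5. It ranged from -0.05 to 0.62 for Fetub, -0.73 to 0.48 for Serpina10 and -1.60 to 0.01 for Serpinf2. For the complement genes the range was -1.06 to 0.13 for C3, -0.95 to 0.13 for C2, -0.42 to 1.03 for Masp1 and -0.85 to 0.72 for C9. No other alternative turned a sign. The number expressed at 1 CPM or more stayed 17 or 18 in these fits, and was 18 at 0.5 CPM and 13 at 5 CPM. With 2 libraries per group, a change that does not pass is not shown to be absent, and the 21 genes with at most 13 counts in any library were not tested.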
